A study of Mus musculus with 8 samples.

Results

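The Id genes (Id1, Id2, Id3 and Id4) were followed across single enteroendocrine cells, which make gut hormones, sorted from mouse intestinal organoids with and without BMP4. All rows with these 4 symbols were taken, out of 20724 genes listed in at least one of the 8 plate files. Cells came from C57BL/6 organoids of 3 hormone reporter lines, named Tac1-Cre, Gcg-Venus and Gip-Cre in the sample titles. A Cre label can stay on in a cell that no longer uses the gene. Organoids were untreated or given BMP4, with exposures of 24 h and of 4 days, and all 3 conditions lay on each of 5 plates of 384 wells (2 Tac1, 2 Gcg and 1 Gip plate). A further 3 plates of the Tac1 line each carried a single condition, 1 labelled 24 h and 2 labelled 4 days.

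BMP ligands bind pairs of type I and type II receptors, which phosphorylate Smad1, Smad5 and Smad9, and these enter the nucleus with Smad4. The Id genes are among the best known direct targets of this step. Id proteins have a helix-loop-helix domain but no basic DNA-binding region, so they pair with E proteins such as Tcf3, Tcf4 and Tcf12 and keep them from working with basic helix-loop-helix factors of the secretory lineage. In the intestine BMP activity is known to be higher towards the villus than in the crypt.

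In GENCODE M21 (mm10, the build of the files), Id1 lies at chr2:152736251-152737410 and Id3 at chr4:136143497-136145755, both on the plus strand. Id2 lies at chr12:25093799-25097140 on the minus strand and Id4 at chr13:48261228-48266026 on the plus strand. The 250 bases before the RefSeq start are shown for Id2 and Id3, because these genes moved together below and are the members with an entry in the RefSeq promoter table (GRCm38.p6) among those that changed. They span chr12:25096093-25096342 (minus strand) and chr4:136143572-136143821 (plus strand). Both windows lie inside the GENCODE gene spans given above, which start further upstream than RefSeq, so they overlap transcribed sequence of that annotation. Each is written 5′ to 3′ on the gene's strand, and capitals mark 2 motifs that Smad proteins are known to bind, GGCGCC and CAGAC, on either strand.
Id2: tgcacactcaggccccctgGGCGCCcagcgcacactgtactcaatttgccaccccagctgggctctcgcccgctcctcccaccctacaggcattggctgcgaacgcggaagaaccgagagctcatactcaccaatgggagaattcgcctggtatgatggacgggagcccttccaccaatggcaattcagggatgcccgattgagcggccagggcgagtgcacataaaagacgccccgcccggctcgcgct
Id3: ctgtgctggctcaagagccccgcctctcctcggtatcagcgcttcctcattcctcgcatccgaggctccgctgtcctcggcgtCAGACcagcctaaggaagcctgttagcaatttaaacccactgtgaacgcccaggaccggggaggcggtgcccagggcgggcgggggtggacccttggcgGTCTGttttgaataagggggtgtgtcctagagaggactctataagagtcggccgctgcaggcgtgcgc
The Id2 window held GGCGCC 1 time and CAGAC 0 times, and the Id3 window held CAGAC 2 times and GGCGCC 0 times. Among 32851 promoter windows of this length, 9.59% held GGCGCC and 42.2% held CAGAC on either strand. GC content was 62.8% in each window, against a median of 52.4% over all windows. A match describes letters and not a bound site.

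Wells with at least 2000 transcripts were kept as cells, 1006 of 3072, and the 5 mixed plates, which carry every condition, gave 883 of them. The cells of a plate and condition were summed, and levels are given in CPM, the transcripts of a gene per 1e+06 in that sum. Sums with at least 10 cells were tested, 14 in all, holding 105881 to 1282870 transcripts, with plates as replicates (n). At 24 h, Tac1 plate 2 gave only 9 cells and was not tested, which leaves 4 plates for comparisons with 24 h. Summed enteroendocrine markers ranged from 5885 to 82034 CPM, and all 9 were detected in every sum except 2 of Tac1 plate 2, where Isl1 was at 0 in both and Scg2 in the 4 day sum. Summed goblet cell markers ranged from 1962 to 12468 CPM in untreated sums, 656 to 4633 at 24 h and 2065 to 23861 at 4 days. Of 7 such genes 2 rose and 1 fell at 4 days against untreated cells, where 3.33% of all tested genes passed in either direction. At 4 days against 24 h 4 rose (median log2 change 2.80), where 0.397% of all tested genes passed. Of 8 enterocyte marker genes 1 rose at 4 days against untreated cells, with a median of 1.29, where 2.41% of all tested genes rose. Against 24 h 0 passed, with a median of 1.38. With only cells that held at least 10 transcripts of a hormone gene or 5 of Tph1, a serotonin cell marker, Id1, Id2 and Id3 changed by 4.69, 3.48 and 4.45 at 24 h and by 5.62, 3.94 and 5.13 at 4 days (log2). Free hormone RNA can meet this rule. The 5th percentile per cell was 16 transcripts of Gcg on Gcg plate 2 and 19.4 of Sst on the Gip plate. The rule thus removed few cells there, and these values do not separate hormone cells from other cell types. The labels do not tell whether plates are separate cultures, and p-values therefore cover only the variation from plate to plate. Each condition had fixed plate columns (1 to 6 untreated, 7 to 12 for 24 h, 13 to 24 for 4 days), and the effects of column and BMP4 cannot be told apart.

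The library labelled 24 h, a single-condition Tac1 plate, stood apart from the 24 h cells of the other plates. Its 48 cells held 11 transcripts of Id1, all in 1 cell, 12 of Id2 and 0 of Id3. Its Id3 level of 0 has an upper 95% limit of 18.9 CPM, while the tested 24 h sums held 165 to 418 CPM. Both single-condition plates labelled 4 days held Id1, Id2 and Id3 within or above the range of the 4 day cells of the mixed plates. Results below rest on the 5 plates with all conditions. With all 3 single-condition plates added, line as a term and no plate block, the 24 h changes were 4.56, 3.31 and 4.05 (Id1, Id2 and Id3, log2), against 4.79, 3.57 and 4.39 with the 4 day plates alone added, an alternative chosen after seeing the data. In edgeR, adjusted p in these 2 fits ran up to 0.0029.

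Id1, Id2 and Id3 rose on every tested plate after BMP4. In all untreated cells of a plate 0 to 8 transcripts of Id1, 2 to 42 of Id2 and 1 to 16 of Id3 were counted. Id1 stood at 17.1 CPM in untreated cells of Tac1 plate 1, 0 on Tac1 plate 2, 5.75 and 1.46 on the Gcg plates, and 5.43 on the Gip plate. After 24 h it stood at 370.2, 126, 150.2 and 107 CPM on Tac1 plate 1, Gcg plate 1, Gcg plate 2 and the Gip plate. After 4 days Id1 was at 578 and 299 CPM on the Tac1 plates, 189 and 182 on the Gcg plates and 351 on the Gip plate. The lowest treated sum lay above the highest untreated one, so the groups did not overlap, and Tac1 plate 1 was the highest in each condition. On Tac1 plate 2, where no Id1 transcript was found among 105881 in untreated cells, the 4 day level was at least 10.6-fold higher than the floor of 3 counts per sum.

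Id2 was already measurable without BMP4, except on Tac1 plate 2, where its 2 untreated transcripts lay below the floor of 3 counts. Untreated cells held 36.4 and 18.9 CPM on the Tac1 plates, 35.6 and 51.1 on those of Gcg, and 76 on the Gip plate. After 24 h the 4 tested plates were close together, at 576, 523, 503 and 539 CPM on Tac1 plate 1, Gcg plate 1, Gcg plate 2 and the Gip plate. After 4 days they spread out, with 954 and 374 CPM on the Tac1 plates, 375 and 740 on the Gcg plates and 715 on the Gip plate. Id2 was lower at 4 days than at 24 h on Gcg plate 1 and higher on the other 3 plates tested at both times. On Tac1 plate 2 the 9 untested cells at 24 h held 540 CPM, above the 374 CPM at 4 days. Treated and untreated groups did not overlap.

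Id3 followed the same course from a lower start. Untreated cells held 34.2 and 9.44 CPM on the Tac1 plates, 4.6 and 8.76 on the Gcg plates and 10.9 on the Gip plate. After 24 h the levels were 418, 190 and 165 CPM on Tac1 plate 1 and the Gcg plates, and 284 on the Gip plate. After 4 days Id3 reached 739 and 318 CPM on the Tac1 plates, 198 and 244 on the Gcg plates and 457 on the Gip plate. Again no treated sum reached down to the untreated ones, and Tac1 plate 1 was the highest of the tested sums in all conditions.

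**Figure D1:**
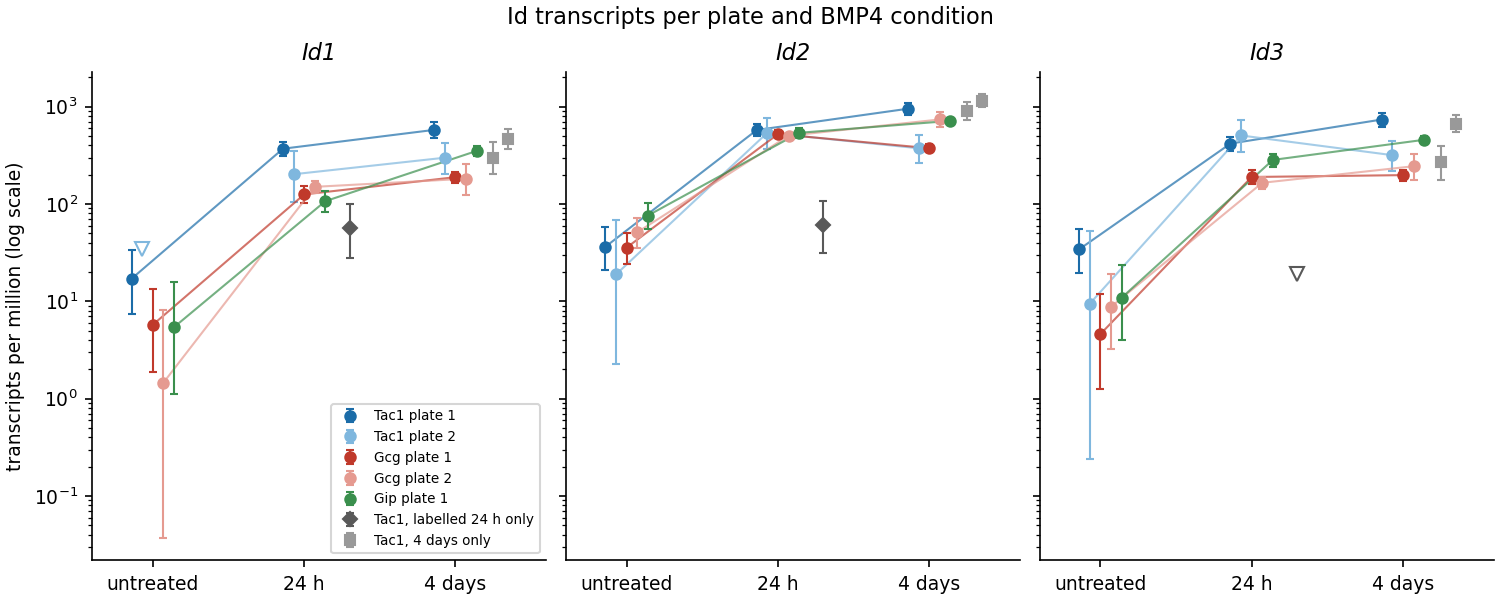
Transcripts per 1e+06 (CPM, log scale) of Id1, Id2 and Id3 in the summed cells of each plate, by BMP4 condition, with exact Poisson 95% intervals that cover counting error only; lines join the conditions of a plate, open triangles mark the upper limit of a sum at 0, and the 24 h point of Tac1 plate 2 rests on 9 cells. Treated points of the 5 plates lie above all untreated points, while the library labelled 24 h (grey) lies at 56.3 CPM for Id1, between untreated and treated points, within the untreated range for Id2, and at 0 for Id3.

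Over 4 plates, Id1 rose by 4.76 ± 0.35, Id2 by 3.50 ± 0.26 and Id3 by 4.38 ± 0.25 (log2 change ± SE of the fit) at 24 h. The adjusted p was 3.48e-06, 3.48e-06 and 2.87e-07 in edgeR's quasi-likelihood test, adjusted by Benjamini-Hochberg over 8309 genes with a threshold of 0.05. At 4 days, over 5 plates, the rises were 5.72 ± 0.34, 3.96 ± 0.26 and 5.05 ± 0.25, with edgeR adjusted p of 2.14e-07, 5.19e-07 and 2.98e-08. All 3 tested members thus passed as higher in both comparisons, where 0.0963% of tested genes passed as higher at 24 h and 2.41% at 4 days. Ranked by p among the 8309 genes, Id3, Id1 and Id2 held places 1, 2 and 3 in both, which share their untreated sums. The share called at 4 days rests on single plates, since 277 genes (3.33%) passed in either direction with all plates, 93 without Tac1 plate 1 and 137 without the Gip plate. The 3 Id calls held in each of the 18 alternatives of either comparison.

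Scaling mattered little for the direction of the Id genes. With spike-in RNA as the library size, the median of all genes moved to -0.31 at 24 h and -0.65 at 4 days (log2), and 8.19% of called genes were higher at 4 days against 72.2% in the main scaling. With library totals alone that share was 54.4%. On the spike-in scale Id1, Id2 and Id3 still changed by 4.54, 3.16 and 4.11 at 24 h and by 5.11, 3.28 and 4.41 at 4 days.

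Between 24 h and 4 days no Id gene passed the test, where 0.397% of genes did. The log2 differences were 0.96 (95% interval 0.41 to 1.51) for Id1, 0.47 (-0.04 to 0.97) for Id2 and 0.67 (0.24 to 1.10) for Id3, with edgeR adjusted p of 0.132, 0.595 and 0.186. Without a filter on low counts the Id1 difference of 0.90 passed, at an edgeR adjusted p of 0.029 (0.029 to 1 over its alternatives). The 33 genes called in this comparison became 1 or 12 when Tac1 plate 1 or 2 was left out, 4 without the Gip plate, and 123 or 80 when Gcg plate 1 or 2 was left out.

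Id4 stayed at the edge of detection. Only the files of Gcg plate 1 and the Gip plate list it, and 6 transcripts in 6 cells were found in all: 2 untreated, 1 at 24 h and 3 at 4 days. On Gcg plate 1 these were 2, 1 and 2 transcripts, or 2.3, 1.28 and 1.56 CPM, all below the level of 3 counts. Id4 did not pass the filter on low counts and was not tested, so 3 of the 4 members entered the tests, and a change in Id4 was not detectable at this depth.

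By reporter line, Id1, Id2 and Id3 changed in the same direction in all 3 lines. On the Tac1 plates the log2 changes were 4.65, 3.96 and 3.71 at 24 h (edgeR adjusted p of 0.088, 0.048 and 0.048) and 5.53, 4.82 and 4.74 at 4 days (0.0086, 0.00304 and 0.00304). On the Gcg plates they were 5.10, 3.60 and 4.73 at 24 h (edgeR adjusted p of 0.00918, 0.00439 and 0.0037) and 5.68, 3.78 and 5.19 at 4 days (0.00392, 0.00392 and 0.00187). The Gip plate gave 4.28, 2.86 and 4.71 at 24 h (edgeR adjusted p of 0.375, 0.249 and 0.068) and 6.09, 3.36 and 5.50 at 4 days (0.0302, 0.0481 and 0.019). The Gip line had 1 tested sum per condition, so its p-values take the spread wholly from plates of other lines. The Tac1 line had 1 tested sum at 24 h, so its 24 h change rests on 1 plate and the spread there comes from other sums. Neither set of p-values is read as calls for the line. In the Tac1 line at 4 days, with 2 plates, 3 of 3 tested members passed as higher, where 1.46% of genes did. In the Gcg line 3 of 3 passed at both times, against 0.0722% and 0.193% of genes.

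The line calls rest on few plates. In the Tac1 line at 4 days all 3 calls ended without Tac1 plate 1 or without Tac1 plate 2, where the line keeps only 1 plate. The Gcg calls held when a Tac1 plate or the Gip plate was left out. With a Gcg plate left out the line has 1 sum per condition and the fit very few residual degrees of freedom, so its p-values are not read as calls. The size of the Id1 change in the Gcg line then moved from 5.10 at 24 h to 6.54 without Gcg plate 1 and 4.32 without Gcg plate 2. At 4 days it moved from 5.68 to 6.88 and 5.14. The adjusted p of the Gip line at 4 days ran from 0.132 to 0.191 in edgeR without either Tac1 plate, and fell below 1e-08 without either Gcg plate, so it followed the plates of other lines.

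The difference in response between lines was tested itself, first between the Gcg and Tac1 lines. At 4 days it was 0.14 (95% interval -1.37 to 1.65) for Id1, -1.04 (-2.24 to 0.16) for Id2 and 0.45 (-0.81 to 1.71) for Id3, and at 24 h 0.45 (-1.43 to 2.34), -0.36 (-1.63 to 0.91) and 1.02 (-0.33 to 2.37), in log2 units. The smallest edgeR adjusted p of these was 0.603, for Id2 at 4 days, where its unadjusted p was 0.0818. No gene passed at either time (0%; unadjusted p under 0.05 for 146 and 755 genes at 24 h and 4 days in edgeR, and 0 and 22 calls in DESeq2). For the Gip plate, with 1 sum per condition, the difference from the Tac1 line at 4 days was 0.56 (-1.82 to 2.93) for Id1, -1.46 (-2.84 to -0.08) for Id2 and 0.76 (-0.80 to 2.32) for Id3. The Id2 interval lay below 0, with an unadjusted p of 0.0407 and an adjusted p of 0.814 in edgeR. The other Gip differences, from Tac1 at 24 h and from Gcg at both times, had intervals that held 0. No gene of all tested passed in edgeR in the 4 Gip comparisons (unadjusted p under 0.05 for 98 to 500 genes, and 1 to 5 calls in DESeq2). The Gcg minus Tac1 intervals leave room for differences of more than 2-fold in either direction for Id1. Without Tac1 plate 1 the Id1 difference at 4 days became -5.17, since the remaining Tac1 plate had no untreated Id1 transcript.

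To ask how many cells responded, each cell was thinned to 2000 transcripts, so that depth was equal. A cell without a transcript at this depth may still express the gene. In untreated cells, at least 1 transcript of Id1, Id2 or Id3 was found in 22.1% and 6.25% of cells on the Tac1 plates, 12.5% and 8% on the Gcg plates and 17.5% on the Gip plate. At 24 h Tac1 plate 1 had 61.1%, the Gcg plates 65.7% and 63.9%, and the Gip plate 62.9%. At 4 days they were 65.9% and 68.8% on the Tac1 plates, 60% and 54.2% on the Gcg plates and 74.8% on the Gip plate. The library labelled 24 h held 6.25%, within the untreated range.

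**Figure D2:**
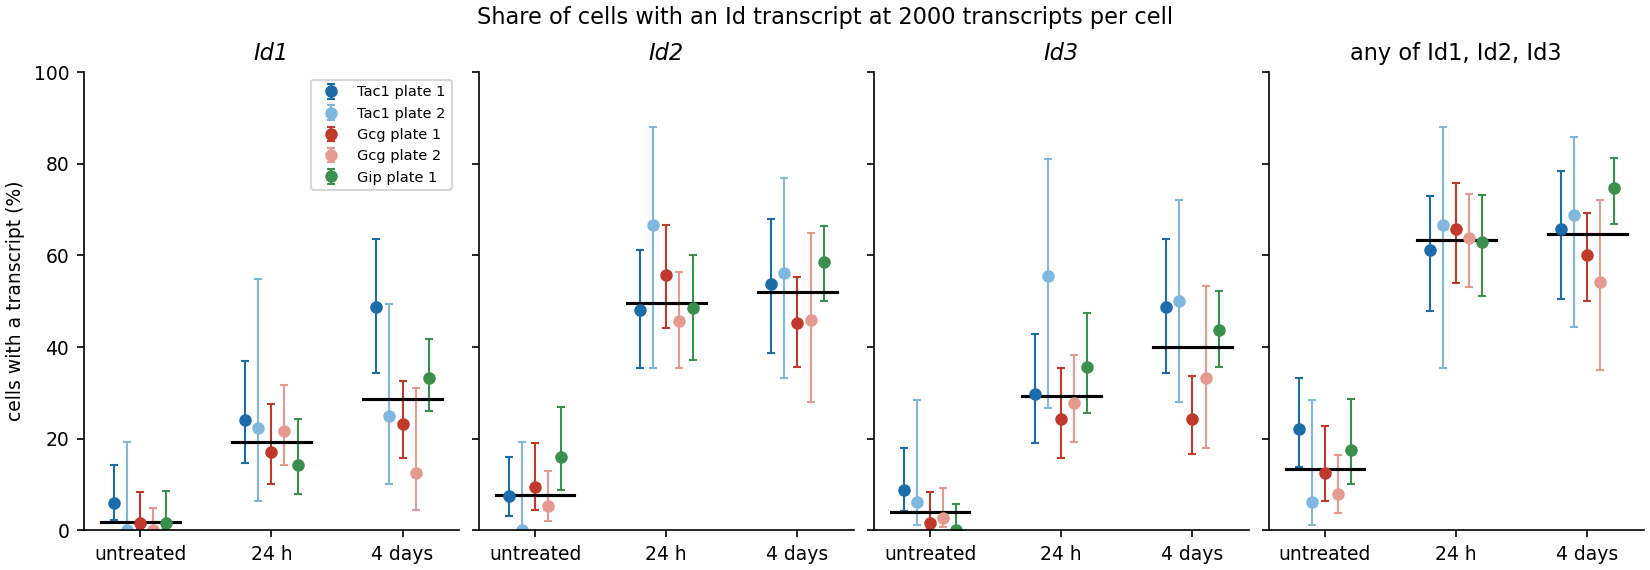
Share of cells (%) with at least 1 transcript of Id1, Id2, Id3 or any of them after thinning to 2000 transcripts per cell, by plate and BMP4 condition, with Wilson 95% intervals (counting error only); black bars are means over plates with at least 10 cells. For any of the 3 genes, the mean moved from 13.3% in untreated cells to 64.7% at 4 days.

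The share with any Id transcript was higher by 48.4 ± 7.64 points at 24 h (SD, 4 of 4 plates) and by 51.5 ± 8.05 points at 4 days (5 of 5 plates). The exact two-sided sign-flip permutation test over plates gave p = 0.125 and 0.0625, the smallest values that 4 and 5 plates allow. Id1 was found in 17 ± 3.83 points more cells at 24 h and 26.7 ± 11.4 at 4 days, Id2 in 40.1 ± 5.61 and 44.3 ± 7.66, and Id3 in 26.1 ± 6.66 and 36.1 ± 9.24. These 6 differences also had the smallest exact permutation p, and over the 12 tests of this family the adjusted p was 0.188 for each. From 24 h to 4 days the share with any Id transcript differed by 0.32 ± 9.86 points (2 of 4 plates higher, exact permutation p = 1). Without thinning, any Id transcript was found in 12.5 to 49.2% of untreated cells, 77.8 to 84.3% at 24 h and 75 to 86.3% at 4 days, over sums of at least 10 cells.

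Wells under 500 transcripts, taken to hold little beside free RNA, were looked at as a possible background. Id1 was found in 4 of 124 such untreated wells (3.23%), 2 of 125 at 24 h (1.6%) and 12 of 509 at 4 days (2.36%). Id2 was found in 0.806%, 4% and 3.73% of these wells and Id3 in 2.42%, 2.4% and 2.75%. These wells held a median of 104, 56 and 114 transcripts, far fewer than the 2000 of a thinned cell, so the shares are not at equal depth. Per transcript, the untreated wells held 362 CPM of Id1 and 241 CPM of Id3, from 4 and 3 wells. The untreated sums of cells held at most 17.1 and 34.2 CPM. These wells therefore give no background level for the untreated cells. The low shares of untreated cells for Id1 (0 to 5.88%) and Id3 (0 to 8.82%) rest on few transcripts and are not read as expression.

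Positive cells held more transcripts on most plates after BMP4, with overlap between conditions. Positive untreated cells held a mean of 1 transcript of Id1, 1 to 1.5 of Id2 and 1 to 1.5 of Id3 at 2000 transcripts per cell. At 24 h, with the 9 cells of Tac1 plate 2 included, the plate means were 1.5 to 2.77 for Id1, 1.85 to 2.58 for Id2 and 1.39 to 2.94 for Id3. At 4 days they were 1 to 2.75, 1.67 to 2.45 and 1.38 to 2.35, so for Id1 and Id3 the lowest 4 day plate lay within the untreated range. Single treated cells reached 11 transcripts of Id1, 10 of Id2 and 9 of Id3, while the untreated maxima were 1, 3 and 3.

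Detection of more than 1 Id gene in a cell was seen only with BMP4 on the 5 mixed plates, at 2000 transcripts per cell. Of 286 untreated cells, 245 held none, 41 held 1 and 0 held 2 or 3 of the genes. If the 3 genes were found independently, 79.5 to 93.8% of untreated cells per plate would hold none, and 77.9 to 93.8% did. At such low shares, the lack of untreated cells with 2 or 3 genes is not read as a trait of these cells. Of 286 cells at 24 h, 105 held 1 gene, 52 held 2 and 25 held all 3. Of 311 cells at 4 days the numbers were 84, 83 and 42. In treated cells of the 5 mixed plates Id3 was found more often in cells with Id2 than in cells without it. On Tac1 plate 1 at 4 days, Id3 was found in 81.8% of the 22 cells with Id2 and in 10.5% of the others. On the Gip plate at 4 days it was found in 54.4% of 79 cells with Id2 and 28.6% of the others, and on Gcg plate 1 in 30.2% of 43 and 19.2%. Between Id1 and Id3 the link was not seen on every plate: on Gcg plate 2 at 4 days Id3 was found in 33.3% of the 3 cells with Id1 and 33.3% of the others, and on the second single-condition plate labelled 4 days in 36.8% of 19 and 38.5%. Cells of a plate share a library, so these shares are a description.

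**Figure D3:**
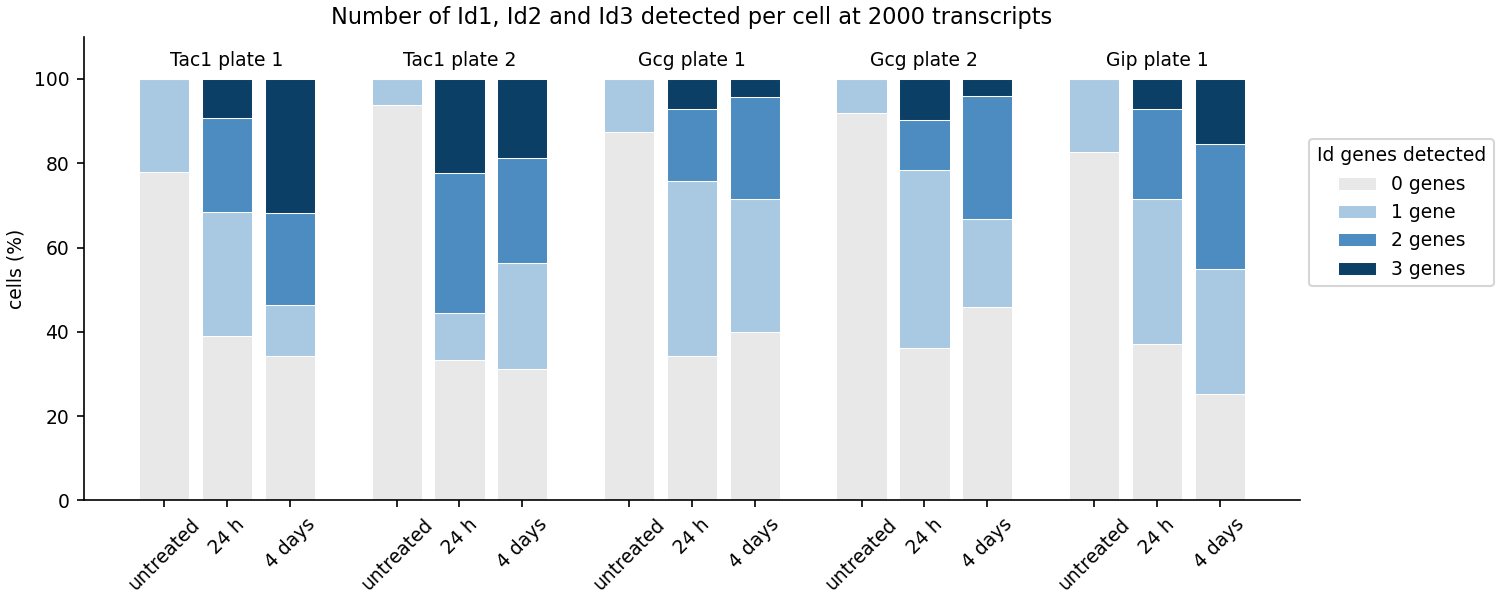
Share of cells (%) in which 0, 1, 2 or all 3 of Id1, Id2 and Id3 were detected at 2000 transcripts per cell, for each of the 5 mixed plates and BMP4 conditions (the 24 h bar of Tac1 plate 2 rests on 9 cells). No untreated bar holds cells with 2 or 3 genes, which would be few at the low untreated shares. At 4 days, 4.17 to 31.7% of cells held all 3.

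Cells were then split by their leading hormone. The rule of at least 10 transcripts was met by free RNA: on Tac1 plate 1 it made Sst, the somatostatin gene, the leading hormone in 117 of 163 cells, with a median of 23.1 Sst transcripts per cell and 4 in low-content wells. A share of at least 1% of a cell's transcripts, a rule chosen after seeing the data, left 19 such cells and is used here. Cells without a leading hormone but with at least 5 transcripts of Tph1, the enzyme that starts serotonin synthesis, are called serotonin type. Shares below are of cells with any Id transcript at 2000 transcripts per cell.

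Cells of each hormone class with enough cells in 2 conditions had higher Id shares after BMP4, except the few Sst cells of Tac1 plate 1 (57.1% of 7 untreated and 37.5% of 8 at 24 h). On the Gip plate, cells led by Gip, the incretin of K cells, went from 21.2% (52 cells) to 62.3% (53) and 76.2% (105). Cells led by Sst on that plate went from 0% (11 cells, upper Wilson limit 25.9%) to 73.3% (15) and 95% (20). The 10 transcript rule gave 64.7% and 76.9% for the treated Sst cells, and at 4 days 74.1% for Gip cells. On Gcg plate 1, cells led by Gcg, the proglucagon gene of L cells, went from 12.5% (24 cells) to 66.7% (12) at 24 h, and on Gcg plate 2 from 11.6% (43) to 47.1% (17). Cells led by Nts, the neurotensin gene, went from 11.1% (9 cells) to 62.5% (16) and 75% (40) on Gcg plate 1, and from 0% (7) to 92.3% (13) and 58.3% (12) on Gcg plate 2. Serotonin type cells of Tac1 plate 1 went from 11.1% (36 cells) to 63.3% (30) and 87.5% (16). Their level of Id1 was 6.86 CPM untreated, 439 at 24 h and 929 at 4 days, that of Id2 27.4, 590 and 1708 CPM, and that of Id3 27.4, 500.5 and 1276 CPM.

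**Figure D4:**
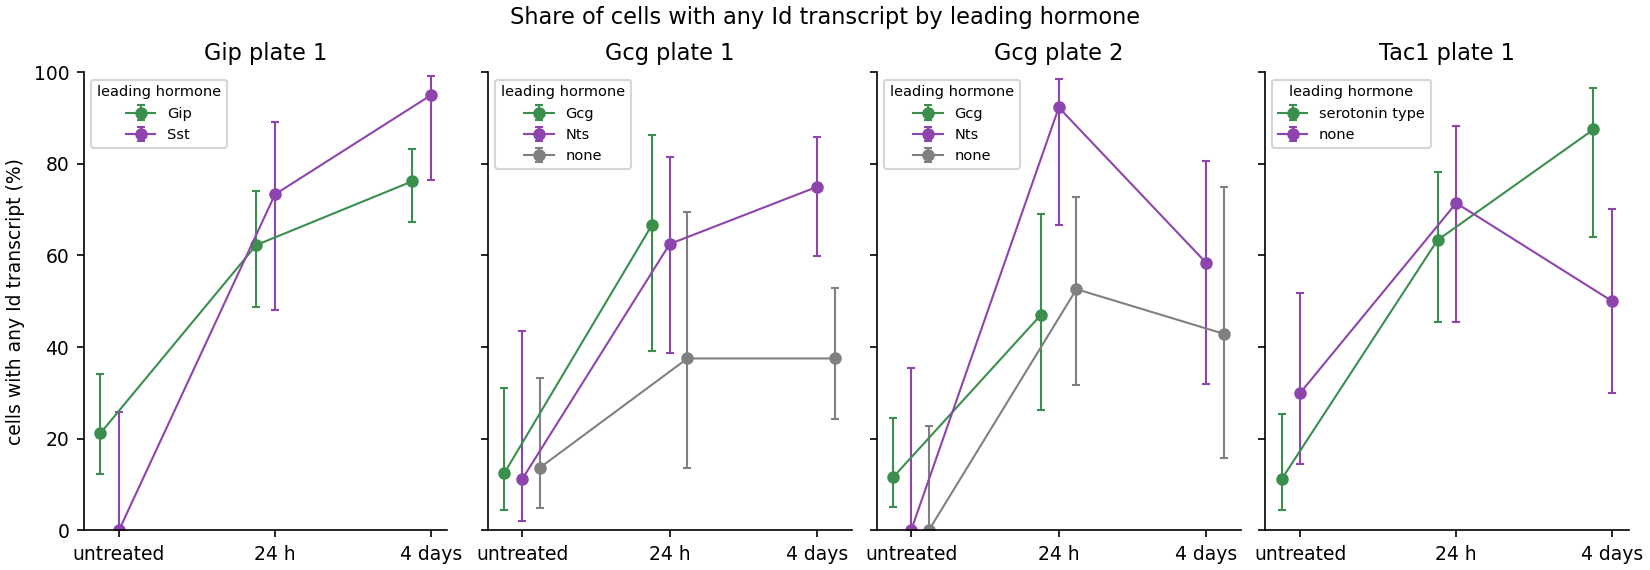
Share of cells (%) with any Id transcript at 2000 transcripts per cell, by BMP4 condition and leading hormone (at least 1% of the transcripts of the cell), for selected classes on 4 plates, each point from at least 5 cells, with Wilson 95% intervals. Not drawn are the Sst cells of Tac1 plate 1, which were lower at 24 h than untreated, and cells led by Cck, Pyy or Gip on the Gcg plates. Cells led by Gip, Sst, Gcg or Nts and serotonin type cells on these panels lie higher with BMP4 than without. With BMP4, cells with no leading hormone on the Gcg plates reach 37.5 to 52.6%. On Tac1 plate 1 such cells lie at 30% untreated, 71.4% at 24 h and 50% at 4 days.

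Cells of the Gcg plates with no leading hormone differed from the rest in their enteroendocrine and goblet markers. On Gcg plate 1 at 4 days, 40 such cells held 674 CPM of summed enteroendocrine markers, 40094 CPM of goblet and 39699 CPM of enterocyte markers, against 9920, 1705 and 14756 CPM in 40 cells led by Nts. Enterocyte markers set them apart less, with 31129 and 32702 CPM in cells led by Cck and Pyy there (5 cells each). On that plate at 24 h, cells without a hormone held 14491 CPM of enterocyte markers, between 5415 CPM in cells led by Nts and 22607 CPM in cells led by Cck. The Id1 level of the cells without a hormone on Gcg plate 1 was 8.20 CPM untreated, 32 at 24 h and 152 at 4 days, from 3, 2 and 109 transcripts. Their Id3 level was 10.9, 16 and 133 CPM, from 4, 1 and 95 transcripts. The 24 h values are from 8 cells and, for Id1 and Id3, lie below the floor of 3 counts. Id2 stood at 16.4, 64.1 and 100.5 CPM in the cells without a hormone, from 6, 4 and 72 transcripts. Its 4 day interval was 78.6 to 126 CPM, while cells led by Nts held 732 CPM (653 to 820) at 4 days. Id1 differed less, with 125 to 183 CPM against 205 to 304 CPM. On Gcg plate 2 at 24 h, 19 cells with no leading hormone held 156 CPM of Id2, 159 of Id1 and 162 of Id3, against 617, 89.2 and 44.6 CPM in 17 cells led by Gcg. On Gcg plate 2 Id1 and Id3 were thus higher in the cells without a hormone than in those led by Gcg. Cells led by Nts there held 880 CPM of Id2, 265 of Id1 and 338 of Id3, above the cells without a hormone for all 3 genes. Intervals cover counting error only, each class is from 1 plate, and these differences were not tested over plates.

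Sct, the gene of the hormone secretin, was measured in the same cells. Cells with at least 5 Sct transcripts at 2000 per cell were compared with all others on plates with 5 or more cells of each kind, a comparison chosen after seeing the data. At 24 h any Id transcript was found in 84.6% against 53.7% on Tac1 plate 1, 72.7% against 40% on Gcg plate 1, 77.8% against 47.4% on Gcg plate 2 and 94.7% against 51% on the Gip plate. The difference was 34.5 ± 6.27 points (SD, higher on 4 of 4 plates; the exact permutation p of 0.125 is the smallest 4 plates allow and becomes 0.281 adjusted over 3 tests), and 36 ± 9.22 points with only cells that had a leading hormone or were of serotonin type. At 4 days it was 26.9 ± 36.7 points (4 of 5 plates, exact permutation p = 0.188). Gcg plate 2 went the other way, with 47.4% of 19 Sct cells against 80% of 5 others. Without Gcg plate 2 the 4 day difference was 41.8 points. In untreated cells it was -1.19 ± 12 points (1 of 2 plates higher, exact permutation p = 1). Among cells with a leading hormone or of serotonin type, only 2 plates had enough cells at 4 days, and the difference was 4.69 points.

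Among other genes of the pathway, Smad6, Smad7 and Skil rose at 4 days. In the list of 9 feedback genes and other BMP targets, 5 were tested. Of these 1 rose at 24 h and 3 at 4 days, where 0.0963% and 2.41% of all tested genes rose. The median log2 change of the list was 0.85 and 1.82, against -6.48e-05 and -0.0041 over all tested genes. Smad6, an inhibitory Smad, rose by 3.38 ± 0.58 at 24 h (edgeR adjusted p = 0.0404) and 4.80 ± 0.53 at 4 days (edgeR adjusted p = 0.000155). Its level was 0 to 2.34 CPM in the untreated sums, 11.4 to 29.3 at 24 h and 29 to 66.6 at 4 days. Its 24 h call ended when any plate was left out, with edgeR adjusted p from 0.0622 without Gcg plate 1 to 0.595 without the Gip plate. It also ended with spike-in totals (0.0896), cells of at least 4000 transcripts (0.188), hormone cells alone (0.0713), sums of at least 5 cells (0.0549) and no plate block (0.0511). Smad7, its sister gene, rose by 4.25 ± 0.59 at 4 days (edgeR adjusted p = 0.00203) and stood at 2.73 ± 0.62 at 24 h (0.322). Untreated sums held 0 to 3 transcripts of Smad7. Tac1 plate 2 held 0 both untreated and at 4 days, so no rise was seen there, and Tac1 plate 1 held 0 untreated and at 24 h. Skil, a corepressor of Smads, rose by 1.82 ± 0.36 at 4 days (edgeR adjusted p = 0.0104), a call that ended without Gcg plate 1 (0.0976) or the Gip plate (0.0623), or with spike-in totals (0.0613). Without the plate block the 4 day calls of Smad7 and Skil also ended (0.0789 and 0.11). Bambi, a pseudoreceptor, was at -0.18 and -0.06, and Tgif1 at 0.13 and -0.34, at 24 h and 4 days. Msx1, a homeobox gene, had 7, 23 and 81 transcripts in untreated, 24 h and 4 day cells of the mixed plates and was not tested. Hey1, Msx2 and Atoh8 had 11, 12 and 0 transcripts on all 8 plates.

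The genes that carry the signal to the nucleus did not pass. Of 7 receptor genes 6 were tested and none passed at either time, with 4 day changes from -0.37 (Bmpr1a) to 0.93 (Acvr2a). Over all tested genes 0.0963% passed as higher at 24 h and 3.33% in either direction at 4 days. A short list without a call is near these shares and is not read as a trait of its genes. Smad1, Smad4 and Smad5 lay between -0.21 and 0.21 at both times, and none of the 3 passed. Smad9 was not tested, with 0 transcripts in untreated cells of the mixed plates, 20 at 24 h and 24 at 4 days. Of 9 ligands and antagonists only Bmp7 was tested, at 0.08 and -1.09, and did not pass. Bmp4 itself had 9 transcripts on all 8 plates.

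The protein partners of the Id family did not pass either, where 3.33% of all tested genes passed in either direction at 4 days. Tcf3, Tcf4 and Tcf12 were at 0.26, -0.05 and 0.08 at 24 h and at 0.68, 0.57 and 0.50 at 4 days (edgeR adjusted p of 0.26, 0.354 and 0.488 at 4 days). Of 9 basic helix-loop-helix factors of the secretory lineage and their Hes relatives, 4 were tested and none passed. That too is near the share over all genes. Neurod1, which drives enteroendocrine maturation, was at 0.59 ± 0.25 and 0.48 ± 0.23, with 11376 transcripts on all 8 plates. Neurod2 was at -0.28 and -0.94, Hes6 at -0.23 and -0.49, and Hes1 at -0.86 and -0.06. Neurog3, the factor that starts the enteroendocrine lineage, had 46 transcripts in 13 cells of all 8 plates, and Atoh1 had 53 in 26 cells.

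Across the 14 sums, Id1, Id2 and Id3 moved together within plates. After log2 CPM was centred on each plate, Pearson's r was 0.98 for each pair of the 3 genes, a description, since sums of a plate share cells' libraries and all sums share the BMP4 contrast. The 8 tested genes outside the family with the highest r to the mean of the 3 were Sct (0.97), Hivep2 (0.97), Tbx3 (0.96), Sstr1 (0.94), Smad6 (0.94), Epb4.1l1 (0.93), Ucp2 (0.92) and Lgals2 (0.90). Leaving out any plate kept r between 0.88 and 0.99 for these genes. Sct had a median of 374 CPM in untreated sums, 8823 at 24 h and 13302 at 4 days. Tbx3, a T-box repressor, had medians of 21.7, 153 and 266 CPM, and Sstr1, a somatostatin receptor, 9.59, 50.3 and 171 CPM. Lgals2, a lectin gene, moved by far less, from 1220.5 to 1710.1 and 2102 CPM.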

How the data were processed

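Sorted cells were sequenced in 384-well plates with SORT-seq (CEL-seq2 chemistry with molecular identifiers), per the labels' protocols. The submitters' processing notes name BWA 0.6.2-r126 and mm10. How reads were counted, and whether by strand, is not given in the sources used here. For each plate the deposited values are expected counts for every gene in every well, close to whole numbers. Inverting the usual correction for identifiers drawn more than once, with 4096 identifiers, gave whole numbers within 0.01 for 100% of values, although the labels state identifiers of 4 bases. Wells with at least 2000 transcripts were kept, without spike-ins and mitochondrial genes, and doublets were not called, since wells were filled with single sorted cells. Libraries use the same 384 well barcodes by design, so a shared barcode is no shared cell. Genes listed by both kinds of plate file were used (16117 with Id4).

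Sums per plate and condition with at least 10 cells were rounded to whole counts and tested with edgeR 4.0.16 in R 4.3.3 (filterByExpr, TMM, quasi-likelihood test, plate as a block), over 8309 genes with Benjamini-Hochberg adjustment. DESeq2 1.42.0 was an alternative. The plate pairs the conditions by design, and residuals of sums on a plate correlated at 0.365 to 0.731 in 13 pairs. The fit was tested on simulated data. Poisson, Wilson and floor limits (3 counts) cover counting error only. Genes named are the Id family, all genes of 6 lists, and the 8 genes most alike in pattern. The members and lists were chosen with earlier results of these data known.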

Additional observations from a re-analysis of the deposited data

Results flagged for a closer look

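Single plates stood far from the other plates of their condition in 3 of 21 groups, where chance gives about 1 in 20 groups. All 3 were Tac1 plate 1: Id3 at 34.2 CPM in untreated cells against 4.6 to 10.9 CPM on the others, Id1 in 5.88% of untreated cells against 0 to 1.59%, and Id1 at 370.2 CPM at 24 h against 107 to 150.2 CPM.

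Among the sums outside the tests, these values lay above the highest untreated Tac1 level (17.1 CPM for Id1, 36.4 for Id2 and 34.2 for Id3). The 9 cells of Tac1 plate 2 at 24 h held 202, 540 and 507 CPM of Id1, Id2 and Id3. The single-condition plates labelled 4 days held 301 and 470.4 CPM of Id1, 912 and 1154 CPM of Id2, and 270.4 and 670 CPM of Id3. The library labelled 24 h held 56.3 CPM of Id1, all from 1 cell, and 61.4 CPM of Id2, which is below the 76 CPM of untreated cells on the Gip plate, and its Id3, at 0, was not above that level.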

How the results depend on the processing

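Depth limits the shares, since a cell with few transcripts can express an Id gene that was not drawn, and Id4 and untreated Id1 rest on single counts. Id1, Id2 and Id3 passed against untreated cells in all 18 alternatives of each pooled comparison. The plate pairs the conditions, and with no replicate block the 24 h changes were 4.81, 3.59 and 4.28 and the 4 day changes 5.75, 3.98 and 5.01, all passing in edgeR. Where a value below moved or crossed the threshold, the cause was not tested. The alternative with hormone cells alone uses the rule of at least 10 transcripts, which free RNA met.

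Counts of genes called at 24 h (8) were 18 with DESeq2, 46 without the filter and 4 with no replicate block. At 4 days (277) they were 1562 with spike-in totals, 654 without the filter, 153 with cells of at least 4000 transcripts and 13 with no replicate block. For 4 days against 24 h (33) they were 124 with DESeq2, 13 with spike-in totals, 323 without the filter, 138 and 9 with cells of at least 1000 and 4000 transcripts, 64 after thinning, 14 with hormone cells alone, 109 with sums of at least 5 cells, 69 with all single-condition plates, and 0 with no replicate block (763 at an unadjusted p under 0.05 in the edgeR fit with the block). Leaving out each plate in turn gave 6 to 10, 93 to 344 and 1 to 123 genes.

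Without a filter, the Id1 difference between 4 days and 24 h (0.90) passed. The Gip line has 1 sum per condition and the Tac1 line has 1 sum at 24 h. The threshold crossings of the Gip line, and of the Tac1 line at 24 h, are therefore given as values and not as line results. In the Tac1 line at 24 h, Id1 passed with DESeq2 (4.70), totals only (4.61), no filter (4.61), cells of at least 1000 transcripts (4.75) and sums of at least 5 cells (4.66). There Id2 and Id3 lost their calls with spike-in totals (3.88 and 3.64), cells of at least 4000 transcripts (4.00 and 3.98) and hormone cells alone (4.08 and 3.71). In the Tac1 line at 4 days all 3 lost them with cells of at least 4000 transcripts (5.81, 5.21 and 4.94) and hormone cells alone (5.16, 5.00 and 4.72). In the Gip line at 24 h, calls appeared without the filter (4.28, 2.86 and 4.72), for Id2 and Id3 with DESeq2 (2.86 and 4.74), and for Id3 after thinning (8.13) and with sums of at least 5 cells (4.71). In the Gip line at 4 days they ended with spike-in totals (4.82, 2.07 and 4.22), cells of at least 4000 transcripts (5.94, 3.27 and 5.67), hormone cells alone (6.10, 3.37 and 5.51) and, for Id2, totals only (3.24). The Gcg minus Tac1 difference of Id1 changed sign with cells of at least 4000 transcripts (-0.015 at 24 h and -0.13 at 4 days).

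Leaving out each plate in turn moved line results for Id1, Id2 and Id3 to 4.44 to 4.63, 3.94 to 4.00 and 3.63 to 3.69 (Tac1 line, 24 h), 5.23 to 10.85, 4.63 to 4.88 and 4.60 to 5.38 (Tac1 line, 4 days), 4.27 to 4.28, 2.85 to 2.86 and 4.70 to 4.71 (Gip line, 24 h) and 6.09 to 6.10, 3.36 to 3.37 and 5.50 to 5.51 (Gip line, 4 days). The Gcg minus Tac1 difference ran from -0.30 to 1.92 for Id1 at 24 h, -5.17 to 1.41 for Id1 at 4 days and -0.19 to 0.83 for Id3 at 4 days. The change in share from 24 h to 4 days ran from -1.63 to 5.17 points for Id2 and from -3.55 to 3.66 for any Id gene.

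Gains in share moved with depth. At 1000 transcripts per cell they were 12.6 (Id1), 29 (Id2), 15 (Id3) and 39.3 points (any) at 24 h, and 30.6 (Id2) and 23.8 (Id3) at 4 days. Without thinning they were 32.4 (Id1) and 45.8 (Id3) at 24 h, and 45.7 and 50.2 at 4 days. With at least 2 transcripts they were 10.5, 26, 12.2 and 39.2 at 24 h for Id1, Id2, Id3 and any, and 11, 24.7 and 15.4 at 4 days for Id1, Id2 and Id3. The 24 h difference between Sct cells and others was 20.1 points without thinning for the Id genes.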
